A study of Rattus norvegicus with 18 samples.

Results

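The complement components and regulators described here are 9 genes of the rat classical pathway and its neighbours: C1qa, C1qb, C1qc, C1s, C2, C4a, C4b, C3 and Serping1. They were taken by symbol from the 38445 genes of the deposited tables, and all 9 matched a gene identifier. Each was followed in RNA from the ventral tegmental area, the midbrain region that holds dopamine neurons of the reward pathway, of 18 adult male wild-type Sprague-Dawley rats. The 6 chronic ethanol rats (rats 7 to 12) had eaten a Lieber-DeCarli liquid diet holding ethanol at 9% v/v over 15 or 16 days, and their tissue was collected at 0 h of withdrawal. The 6 withdrawal rats (rats 13 to 18) had the same ethanol diet, with collection 24 h after it ended. The 6 control rats (rats 1 to 6) had the liquid diet without ethanol for the same time, so a liquid diet is shared by all groups. The labels give each library its own animal number, and no litter or pairing.

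Complement is a chain of plasma and tissue proteins that tags targets for uptake or lysis. In the classical pathway the recognition protein C1q, built from the chains encoded by C1qa, C1qb and C1qc, activates the proteases C1r and C1s, which cut C4 and C2. The product cuts C3, whose fragments coat the target and draw phagocytes through their receptors. Serping1 encodes C1 inhibitor, which blocks C1r and C1s. In the brain, microglia are the main source of C1q, and complement is known for marking synapses for removal.

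In edgeR none of the 8 members that could be tested passed the threshold, an adjusted p under 0.05, in any comparison. With DESeq2, C3 was 1 of 46 genes that passed in chronic ethanol against control. C4b was likewise 1 of 301 genes in withdrawal against chronic ethanol. The main contrasts in the levels lay in C3 and C4b. C3 was lower in every chronic ethanol rat than in any control rat, as were 0.408% of the 17637 genes tested. The nearest rats were at 56.2 CPM (rat 8) and 57.6 CPM (rat 1). C4b was higher in every withdrawal rat than in any chronic ethanol rat, as were 0.811% of these genes. The nearest rats were at 2.82 CPM (rat 18) and 2.45 CPM (rat 8). For each C1q gene the means of the 3 groups lay close together. Serping1 was set by withdrawal rat 13 and control rat 3. Levels between rats are given in CPM (counts relative to library size, scaled with TMM factors), and levels between genes in TPM, which also divides by the exonic length.

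The libraries held 29.6 to 45.1 M counts, so that 3 counts, the limit a count of 0 allows, stood for 0.0666 to 0.104 CPM (counting error only). The dopamine neuron markers Th, at 17.6 to 763 CPM, and Slc6a3, at 2.56 to 788 CPM, were found in all 18 rats. Withdrawal rat 13 stood apart with 16373 CPM summed over 7 pineal genes, against at most 10.4 CPM in any other rat, and 700.5 CPM over 11 choroid plexus genes, against at most 58.5 CPM. Control rat 3 stood apart with 774 CPM summed over 12 meningeal fibroblast genes, against at most 283 CPM elsewhere, and 78.4 CPM over 8 border macrophage genes, against at most 38.4 CPM. Chronic ethanol rat 8 and control rat 5 had 54.2 and 61.5 CPM summed over 6 hindbrain Hox genes, against at most 4.95 CPM in the other rats, and withdrawal rat 17 had the lowest sum over 11 dopamine neuron genes, at 397 CPM, against up to 3512 CPM. Values without rats 3 and 13 are given beside several of the results they move. The tissue was sequenced in bulk, so fewer cells of a type and less RNA per cell cannot be told apart.

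Promoter windows of RefSeq (build GRCr8, 250 bases before to 50 after the start of the gene) were found for C1qa, C1qb, C4a, C4b and C3. The windows of C1qa and C1qb are shown because these genes kept near-constant proportions across the rats. That of C1qa is chr5:154419884-154420183 on the minus strand, and that of C1qb is chr5:154407778-154408077 on the minus strand. Capitals mark the matches to the motifs searched.
C1qa promoter: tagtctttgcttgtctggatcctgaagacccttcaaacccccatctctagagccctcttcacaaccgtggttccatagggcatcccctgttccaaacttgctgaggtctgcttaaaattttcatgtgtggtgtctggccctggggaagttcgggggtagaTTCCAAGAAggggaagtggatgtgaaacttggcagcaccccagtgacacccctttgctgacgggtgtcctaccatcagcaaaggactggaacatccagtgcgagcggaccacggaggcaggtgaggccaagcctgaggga
C1qb promoter: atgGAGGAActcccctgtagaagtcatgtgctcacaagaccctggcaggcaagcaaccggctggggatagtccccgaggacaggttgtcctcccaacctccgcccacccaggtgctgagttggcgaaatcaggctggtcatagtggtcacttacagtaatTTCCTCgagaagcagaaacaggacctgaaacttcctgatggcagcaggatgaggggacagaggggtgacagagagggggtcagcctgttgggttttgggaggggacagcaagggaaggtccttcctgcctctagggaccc
The motif TTCNNNGAA, the STAT element, was found 90 bases before the C1qa start and in 8.87% of 33469 rat promoter windows of the same length. GAGGAA, the core read by ETS factors such as PU.1, was found in the C1qb window 247 bases before the start, and as TTCCTC, on the other strand, 90 bases before it. It was in 27.6% of all windows. The interferon-stimulated response element (3.92% of all windows) and TATAAA (14.2%) were in none of the 5 member windows. All 4 motifs were searched on both strands, and a match is a run of letters, not a shown binding site.

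The windows of C4a, chr20:4010107-4010406 on the plus strand, and C4b, chr20:4201729-4202028 on the plus strand, are shown because the copies are so alike. Capitals mark the longest run that both share, of 125 bases.
C4a promoter: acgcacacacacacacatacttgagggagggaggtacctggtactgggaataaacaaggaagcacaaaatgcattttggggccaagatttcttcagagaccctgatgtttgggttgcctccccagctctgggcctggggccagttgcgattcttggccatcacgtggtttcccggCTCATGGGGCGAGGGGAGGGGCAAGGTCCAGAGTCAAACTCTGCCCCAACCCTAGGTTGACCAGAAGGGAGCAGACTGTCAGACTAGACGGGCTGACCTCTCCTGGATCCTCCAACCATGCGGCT
C4b promoter: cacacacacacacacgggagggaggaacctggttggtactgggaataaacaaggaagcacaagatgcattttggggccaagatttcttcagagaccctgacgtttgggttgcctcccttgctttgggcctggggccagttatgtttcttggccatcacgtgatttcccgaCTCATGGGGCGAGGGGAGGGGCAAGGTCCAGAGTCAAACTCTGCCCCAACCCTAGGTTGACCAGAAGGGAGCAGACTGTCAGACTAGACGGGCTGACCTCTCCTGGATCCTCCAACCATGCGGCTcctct
Over 291 aligned bases, 279 were identical (95.9%) and 12 differed. GAGGAA was found in the C4b window, 229 bases before the start, and not in that of C4a. C4a and C4b both encode C4, the protein that C1s cuts.

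C1q, the recognition protein, had the highest mean levels among the members in each group. In TPM, C1qa averaged 134 ± 31.9 in chronic ethanol, 150.1 ± 30.0 in withdrawal and 150.2 ± 8.50 in control rats (SD, n = 6 each). C1qb averaged 74.2 ± 17.0, 85.7 ± 17.4 and 81.7 ± 6.94 TPM in the chronic ethanol, withdrawal and control rats. C1qc averaged 45.7 ± 13.8, 50.2 ± 9.28 and 44.1 ± 4.89 TPM in the same groups. The order C1qa, C1qb, C1qc was kept in all 18 rats. The TPM of C1qb was 0.482 to 0.616 times that of C1qa (median 0.555), and that of C1qc 0.264 to 0.410 times (median 0.323). The 3 genes lie side by side on chromosome 5 between positions 155246444 and 155264101 (Rnor_6.0, minus strand).

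Rat by rat, C1qa ran from 39.0 to 74.7 CPM (median 50.4) in chronic ethanol rats, from 44.3 to 72.2 CPM (median 62.2) in withdrawal rats and from 50.6 to 61.8 CPM (median 59.3) in control rats. The groups overlap, and the control rats lie inside the range of the chronic ethanol rats. Chronic ethanol rat 10 was the highest of its group, and rats 7 and 9 the lowest, for C1qa, C1qb and C1qc alike. The log2 change of C1qa was -0.13 ± 0.15 (SE) in chronic ethanol against control, with a 95% interval of -0.44 to 0.17 (edgeR adjusted p = 0.999). In withdrawal it was 0.02 against control (interval -0.28 to 0.33, adjusted p = 0.965) and 0.16 against chronic ethanol (interval -0.15 to 0.46, adjusted p = 0.606). For C1qb and C1qc the log2 changes lay between -0.11 and 0.21 in the 3 comparisons, and the widest interval reached 0.58. Without rat 3 the log2 changes of the 3 genes lay between -0.13 and 0.27.

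The microglia list moved little with the groups. Its 15 genes, all measured and none at 0 in any rat, summed to 455 to 801 CPM in chronic ethanol, 506 to 632 CPM in withdrawal and 498 to 633 CPM in control rats. Its defining genes P2ry12 and Tmem119 averaged 29.0 and 14.1 CPM in the ethanol-fed rats at 0 h, 31.6 and 13.6 CPM in withdrawal and 32.0 and 15.8 CPM in control rats. The highest sum was that of rat 10 and the lowest that of rat 7. Among 15028 genes, those most like C1qa over the 18 libraries, after centring on the group means, were C1qb (r = 0.94), C1qc (r = 0.89) and Tnfaip8l2 (r = 0.87). For C1qb they were C1qa, C1qc and Csf1r, the receptor for the growth factor CSF1 (r = 0.87), and for C1qc they were C1qb, C1qa and Clec4a3 (r = 0.82). These r values are descriptions of likeness between genes measured in the same libraries. Without rat 3 the C1q genes were the first and second of each other's lists. Without rats 3 and 13, Brcc3-ps7 was second for C1qa and C1qc (r = 0.94 each), ahead of C1qb.

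**Figure D1:**
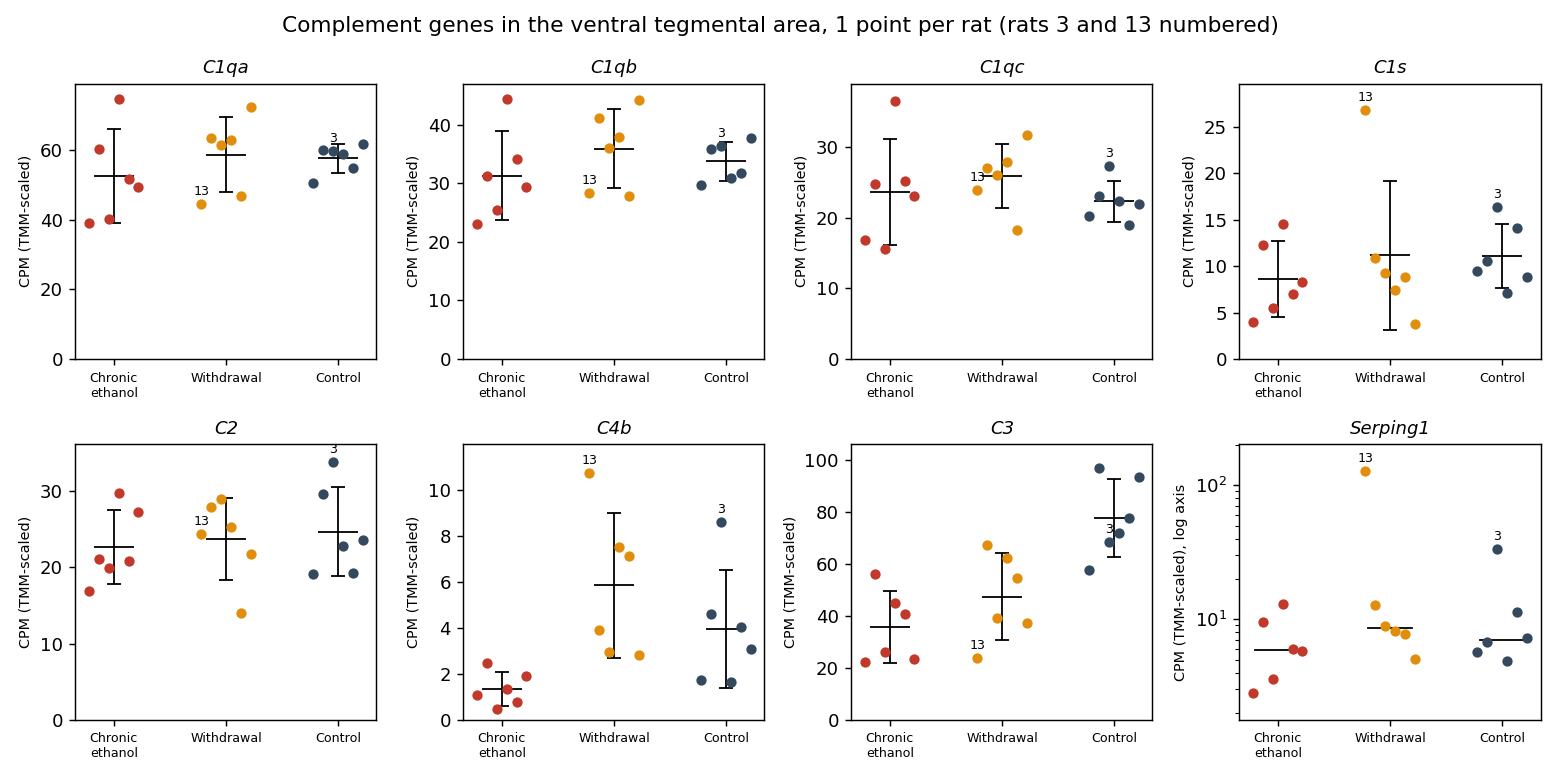
TMM-scaled CPM of the 8 measured complement genes, 1 point per rat, in chronic ethanol, withdrawal and control rats (6 each). Horizontal lines and bars are the mean and SD, except for Serping1, where the axis is logarithmic and the line is the median. For C3 all chronic ethanol points lie below all control points, as for 0.408% of the 17637 genes tested. For C4b all withdrawal points lie above all chronic ethanol points, as for 0.811% of these genes.

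C1s, the protease that cuts C4 and C2, lay far below C1q. It averaged 7.57 ± 3.44 TPM in chronic ethanol, 9.75 ± 6.65 TPM in withdrawal and 9.99 ± 3.04 TPM in control rats. In CPM it ran from 4.03 to 14.6 in chronic ethanol, from 3.80 to 26.8 in withdrawal and from 7.13 to 16.3 in control rats. The highest withdrawal value was that of rat 13, and the other 5 withdrawal rats averaged 8.02 ± 2.66 CPM. The log2 change was -0.37 ± 0.39 in chronic ethanol and 0.01 ± 0.39 in withdrawal, both against control (edgeR adjusted p = 0.999 and 0.994). Without rat 3 these values were -0.23 and 0.14. Without rat 13 the value in withdrawal was -0.47 ± 0.32 (adjusted p = 0.716), and without rat 10 that in chronic ethanol was -0.59. In withdrawal against chronic ethanol the log2 change was 0.38 ± 0.39 (adjusted p = 0.646), and -0.10 without rat 13. Genes most like C1s were Cubn (r = 0.94), Ccdc80 (r = 0.92) and C1r, the partner protease of C1s (r = 0.92). Without rats 3 and 13 they were Serping1 (r = 0.95), Ccdc80 and Lcat (r = 0.94 each).

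C2, the other target of C1s, had a coefficient of variation within groups of 22.8%, against 18.1 to 22.2% for the C1q genes. It ran from 16.9 to 29.7 CPM (median 21.0) in chronic ethanol, from 14.0 to 29.0 CPM (median 24.8) in withdrawal and from 19.2 to 33.7 CPM (median 23.2) in control rats. The groups overlap. The log2 changes were -0.13 ± 0.18 in chronic ethanol against control, -0.06 ± 0.18 in withdrawal against control and 0.07 ± 0.18 in withdrawal against chronic ethanol, with edgeR adjusted p of 0.875 or more. The 95% intervals were -0.51 to 0.26, -0.44 to 0.33 and -0.32 to 0.45 in the same order. Without rat 3, the control rat with the highest C2, the log2 changes were -0.019, 0.046 and 0.065. Eno3, Rab34 and Col13a1 were most like it (r = 0.88, 0.86 and 0.86).

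C4a had 0 counts in all 18 rats and could not be tested. Its gene model spans chr20:2651599-2678183 (Rnor_6.0, minus strand) with 39 merged exons. C4b, at chr20:4302344-4316752 with 41 merged exons, had 2470 counts in all, between 19 and 397 per library. Of the exons of C4a, 35 have a counterpart of equal length in C4b. Pairs of reads that matched several places were not counted, per the file headers, so levels of such alike genes are uncertain. A further gene model on the same strand, GeneID:103689965, lies at chr20:4495440-4508232, in a row of genes with Cfb and C2. Of its 36 exons, 34 have a counterpart of equal length in C4b, against 15 in C3, and it held 4094 counts. The names table gives it no symbol, and none is given here.

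C4b had the lowest levels of the members with counts, at 0.63 ± 0.35 TPM in chronic ethanol, 2.77 ± 1.43 TPM in withdrawal and 1.91 ± 1.21 TPM in control rats. In withdrawal rats it was 10.7, 3.91, 2.93, 7.51, 7.13 and 2.82 CPM (rats 13 to 18). In chronic ethanol rats it was 1.07, 2.45, 0.455, 1.34, 0.756 and 1.91 CPM (rats 7 to 12). In control rats it was 1.72, 4.61, 8.58, 1.66, 4.01 and 3.08 CPM (rats 1 to 6). All 6 withdrawal rats lie above all 6 chronic ethanol rats, while 4 of 6 chronic ethanol rats lie below all control rats. Such a gap upward in withdrawal was found in 0.811% of the 17637 genes tested.

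In withdrawal against chronic ethanol the log2 change of C4b was 2.13 ± 0.48 (unadjusted p = 0.000306, edgeR adjusted p = 0.0861), which did not pass. It was 2.13 without rat 3 (adjusted p = 0.0689) and 1.87 without rat 13 (adjusted p = 0.0885). Without rats 5, 8, 13 and 17 it was 1.96 (adjusted p = 0.163). DESeq2 called it over all rats, with an adjusted p of 0.0011. In chronic ethanol against control the log2 change was -1.57 ± 0.47 (unadjusted p = 0.0038, edgeR adjusted p = 0.622), and -1.19 without rat 3, the control rat with the highest C4b. In withdrawal against control it was 0.57 ± 0.45 (adjusted p = 0.650), 0.94 without rat 3 and 0.30 without rat 13 (adjusted p = 0.528 and 0.888). The comparison of withdrawal with chronic ethanol and that of chronic ethanol with control share the chronic ethanol rats, so these changes are not separate observations.

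GeneID:103689965 averaged 3.99 ± 1.55 CPM in chronic ethanol, 6.87 ± 1.67 CPM in withdrawal and 7.37 ± 3.15 CPM in control rats. Its log2 change was 0.79 ± 0.29 in withdrawal against chronic ethanol (edgeR adjusted p = 0.247) and -0.89 ± 0.29 in chronic ethanol against control (adjusted p = 0.695). It was the gene most like C4b (r = 0.94), ahead of Ifi27, an interferon-induced gene (r = 0.91), and RT1-Ba, an MHC class II gene (r = 0.85). When its counts were added to those of C4b, a check chosen after seeing the data, the log2 change in withdrawal against chronic ethanol was 1.26 ± 0.35 (adjusted p = 0.141).

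**Figure D2:**
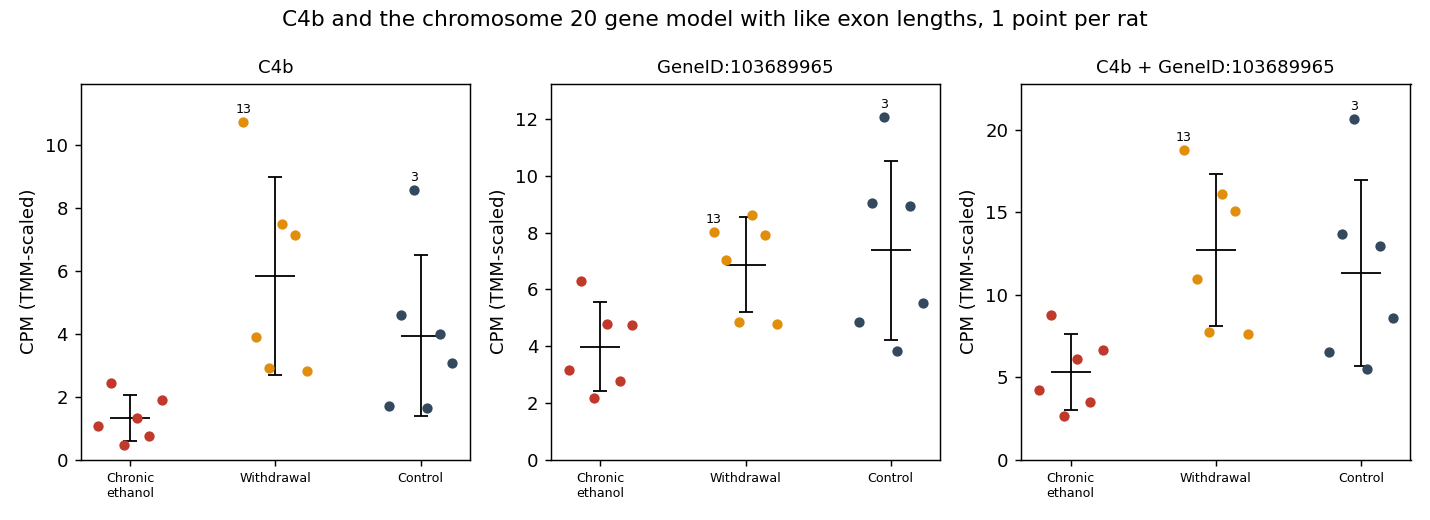
TMM-scaled CPM of C4b, of the chromosome 20 gene model GeneID:103689965 and of their sum, 1 point per rat, in chronic ethanol, withdrawal and control rats (6 each). Horizontal lines and bars are the mean and SD. The withdrawal points of C4b lie above its chronic ethanol points, as for 0.811% of the 17637 genes tested. Those of GeneID:103689965 overlap.

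The interferon list had the same order of groups as C4b. Its 20 genes, of which at most 1 was at 0 in any rat, summed to 256 to 561 CPM in withdrawal, 173 to 237 CPM in chronic ethanol and 219 to 391 CPM in control rats. The highest sums were those of withdrawal rats 13, 16 and 17, which also had the highest C4b of their group, and among control rats that of rat 3. The defining gene Irf7 ran from 5.08 to 53.9 CPM in withdrawal, from 1.41 to 4.81 CPM in chronic ethanol and from 2.97 to 11.8 CPM in control rats. The part of these genes in the C4b result was not tested.

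C3, on which the pathways of complement converge, was 22.4, 56.2, 26.1, 45.1, 40.7 and 23.4 CPM in chronic ethanol rats 7 to 12. It was 23.8, 67.4, 39.2, 62.4, 54.5 and 37.4 CPM in withdrawal rats 13 to 18. In control rats 1 to 6 it was 57.6, 97.0, 68.4, 71.8, 77.7 and 93.4 CPM. All 6 chronic ethanol rats lie below all 6 control rats, and so do 4 of the 6 withdrawal rats. A gap of this kind in chronic ethanol was found in 0.408% of the 17637 genes tested. Control rat 3 lies among the other control rats here.

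The log2 change of C3 in chronic ethanol against control was -1.12 ± 0.26, with a 95% interval of -1.67 to -0.58. It did not pass over all genes (unadjusted p = 0.00043, edgeR adjusted p = 0.281), and DESeq2 called it with an adjusted p of 0.0172. Without rat 3 the log2 change was -1.16 (edgeR adjusted p = 0.558), and without rat 13 it was -1.13 (adjusted p = 0.104). Without rats 5, 8, 13 and 17 it was -1.31 (adjusted p = 0.0847). In withdrawal against control it was -0.71 ± 0.26 (unadjusted p = 0.0131, adjusted p = 0.431). In withdrawal against chronic ethanol it was 0.41 ± 0.26, with an interval of -0.13 to 0.96 (adjusted p = 0.437). Without rat 13 the value against chronic ethanol was 0.55, with an interval of 0.05 to 1.05 (edgeR unadjusted p = 0.0317, adjusted p = 0.310). The value against control was then -0.58 (adjusted p = 0.522). Withdrawal and chronic ethanol rats overlap, and both comparisons with control share the control rats.

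In TPM, C3 averaged 18.0 ± 6.76 in chronic ethanol, 24.1 ± 8.96 in withdrawal and 40.0 ± 7.46 in control rats. In control rats C3 and C1qc differed by less than their SDs, whereas in chronic ethanol rats C3 lay next to C2 (22.2 ± 4.53 TPM). Genes most like C3 were Fnta (r = 0.90), Dusp15 (r = 0.86) and Wfikkn1 (r = 0.86).

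Within the first library index, which rats 1 to 8 share, the difference in mean log2 CPM of C3 between chronic ethanol rats 7 and 8 and the 6 control rats was -1.11, against -1.19 over all rats. The same difference for C4b was -1.02, against -1.49. Among rats 9 to 16, which share another index, C4b was higher by 2.44 on the log2 scale in 4 withdrawal rats than in 4 chronic ethanol rats, against 2.10 over all rats. No index holds both withdrawal and control rats.

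Of the 5 red blood cell genes, 0 were called in any comparison. All 5 were lower at an unadjusted p under 0.05 in chronic ethanol against control (median log2 change -1.34), as were 2.74% of all genes. All 5 were also lower in withdrawal against control (median -1.36), as were 3.58% of all genes. None of the 5 was at 0 in any rat. These 5 genes summed to 53.0 to 237 CPM in chronic ethanol, 93.5 to 175 CPM in withdrawal and 186 to 527 CPM in control rats. The defining gene Hbb ran from 22.4 to 94.8 CPM in chronic ethanol, from 39.9 to 80.6 CPM in withdrawal and from 81.4 to 217 CPM in control rats. The 10 astrocyte genes, none at 0, summed to 7082 to 11373 CPM in chronic ethanol, 4492 to 9175 CPM in withdrawal and 7457 to 9956 CPM in control rats. The part of these lists in the C3 result was not tested.

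Serping1, the gene of C1 inhibitor, was led by single rats. It ran from 2.81 to 13.0 CPM (median 5.89) in chronic ethanol rats. In withdrawal rats it was 127.6 CPM in rat 13 and 5.04 to 12.8 CPM in the other 5. In control rats it was 33.5 CPM in rat 3 and 4.86 to 11.3 CPM in the other 5. Without rat 13 the withdrawal mean was 8.55 ± 2.77 CPM (n = 5), and without rat 3 the control mean was 7.19 ± 2.499 CPM (n = 5). The pineal and choroid plexus lists of rat 13 and the meningeal fibroblast and border macrophage lists of rat 3 are given above.

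The log2 change of Serping1 in withdrawal against chronic ethanol was 2.07 ± 0.78 (unadjusted p = 0.0161, edgeR adjusted p = 0.248), and 0.34 ± 0.48 without rat 13. In withdrawal against control it was 1.30 ± 0.76 (adjusted p = 0.554), -0.43 without rat 13 and 1.96 without rat 3. In chronic ethanol against control it was -0.77 ± 0.76 (adjusted p = 0.999) and -0.09 without rat 3. Genes most like it were Cp, the gene of ceruloplasmin (r = 0.99), Timp1 (r = 0.98) and Serpinf1 (r = 0.97). Without rats 3 and 13 they were Cp (r = 0.96), Aebp1 (r = 0.95) and C1s (r = 0.95), whose protein Serping1 blocks.

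**Figure D3:**
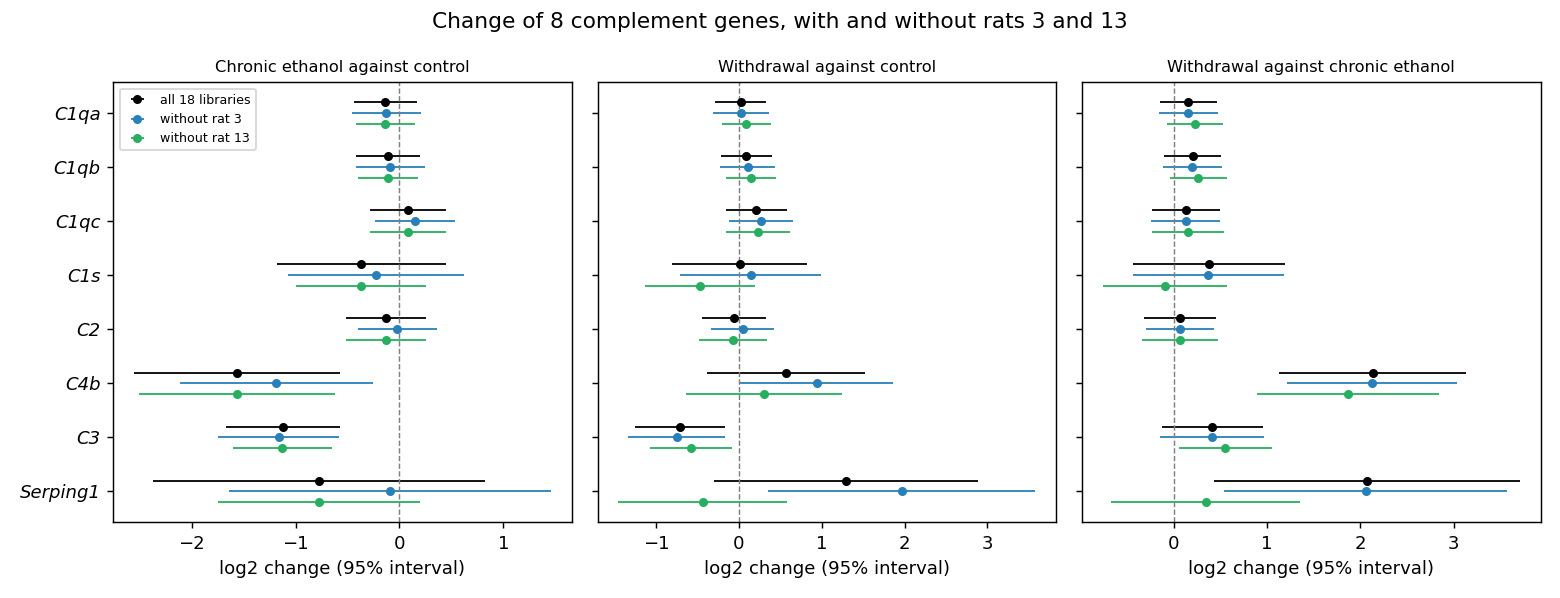
Log2 change with its 95% interval for the 8 tested complement genes in chronic ethanol against control, withdrawal against control and withdrawal against chronic ethanol, fitted over all 18 libraries and without rat 3 or rat 13. The change of C3 in chronic ethanol against control stays near -1.12 in all 3 fits, while that of Serping1 in withdrawal against control is 1.30 over all libraries and -0.43 without rat 13.

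By comparison, edgeR called 0 of the 8 tested members in chronic ethanol against control, where it called 0% of the 17637 genes. At an unadjusted p under 0.05, C3 and C4b were lower and no member was higher, against 2.74% of all genes lower and 3.1% higher. The median log2 change was -0.25 over the members and -0.0039 over all genes, and 7 of 8 members were below 0, as were 51.3% of all genes. DESeq2 called 1 member (C3) among 46 genes, and limma-voom called 0 members among 2 genes.

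In withdrawal against control edgeR also called 0 of 8 members and 0% of all genes. Over all 18 libraries C3 alone was lower at an unadjusted p under 0.05, against 3.58% of all genes. No member was higher, against 6.24%. The median log2 change was 0.06 over the members, of which 2 of 8 were below 0, as were 46.3% of all genes. DESeq2 called 0 members among 47 genes, and limma-voom called 0 members. Without rat 3, Serping1 (1.96, edgeR unadjusted p = 0.0201) and C4b (0.94, unadjusted p = 0.0464) were higher. The share over all genes was not computed for that fit. Serping1 was -0.43 and C4b 0.30 without rat 13.

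In withdrawal against chronic ethanol edgeR called 0 of 8 members and 0% of all genes. C4b and Serping1 were higher and no member was lower at an unadjusted p under 0.05, against 9.38% of all genes higher and 5.95% lower. All 8 members were above 0, with a median of 0.29, against a median of 0.02 over all genes, of which 46.7% were below 0. Without rat 13, C1s was -0.10 and Serping1 was 0.34 (edgeR unadjusted p = 0.489). In that fit C4b was 1.87 (edgeR unadjusted p = 0.000873, adjusted p = 0.0885). C3 was 0.55 (unadjusted p = 0.0317, adjusted p = 0.310), against an unadjusted p of 0.127 over all 18 libraries. For the fit without rat 13 the share over all genes was not computed. Over all 18 libraries DESeq2 called 1 member (C4b) among 301 genes, and limma-voom called 0 members. In the test for any difference among the groups edgeR called 0 members and 0% of all genes, and the lowest adjusted p were those of C4b (0.134) and C3 (0.135).

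**Figure D4:**
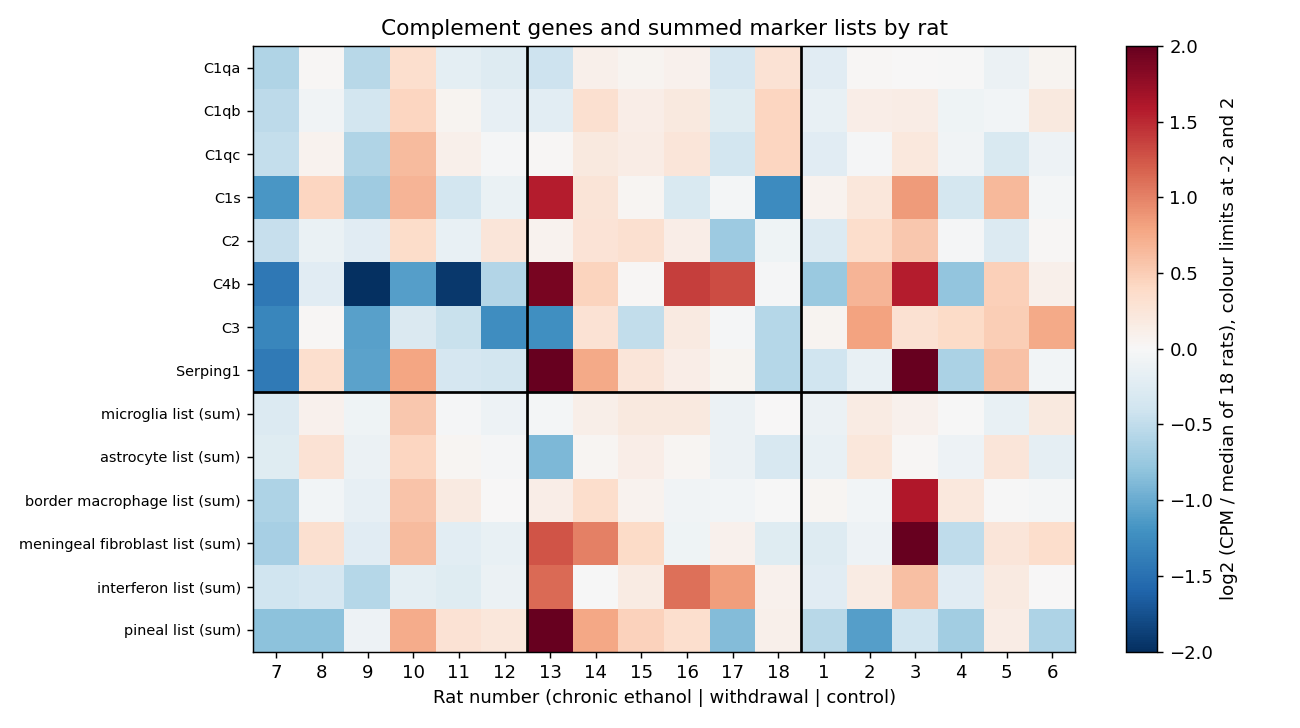
Log2 of CPM over the median of the 18 rats, for the 8 measured complement genes (rows above the line) and for summed marker lists (rows below it), with 1 column per rat in the order chronic ethanol, withdrawal, control. Colours end at -2 and 2. C4b and the interferon list both lie above their medians in withdrawal rats 13, 16 and 17 and in control rat 3, among other rats. The lowest C4b values are those of chronic ethanol rats 9 and 11. Serping1 is darkest in withdrawal rat 13 and control rat 3.

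Beyond the members, 47 other complement genes were listed, of which 46 were in the files and 32 were tested. edgeR called 0 of them in each comparison. In chronic ethanol against control 3 were lower at an unadjusted p under 0.05 and 0 were higher, with a median log2 change of -0.08. Over all genes tested, at the same unadjusted p, 2.74% were lower and 3.1% higher. The 3 lower complement genes included Cfb, the factor B of the alternative pathway (-0.66 ± 0.26), and Masp2, a protease of the lectin pathway (-0.54 ± 0.24), with edgeR adjusted p of 0.834 and 0.837. Masp2 lay at only 0.201 to 0.582 CPM, on 6 to 21 counts per library, which limits its precision. Without rat 3 the log2 change of Cfb was -0.29. C7, a gene of the membrane attack complex, was next (-0.89 ± 0.48), and 0.04 without rat 3.

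In withdrawal against chronic ethanol 6 were higher at an unadjusted p under 0.05 and 0 lower, with a median of 0.15. Over all genes 9.38% were higher and 5.95% lower. Cfb ran from 12.9 to 23.8 CPM in withdrawal rats, against 7.84 to 12.1 CPM in chronic ethanol rats and 9.25 to 32.3 CPM in control rats. All 6 withdrawal rats lie above all 6 chronic ethanol rats, as was found upward for 0.811% of all genes tested. Its log2 change in withdrawal against chronic ethanol was 0.89 ± 0.26 (edgeR adjusted p = 0.164), 0.88 without rat 3 (adjusted p = 0.0689) and 0.90 without rat 13 (adjusted p = 0.160). DESeq2 called it (adjusted p = 0.0488). Itgb2, a chain of complement receptor 3, and Cfd, the protease factor D, were led by rat 13. Their log2 changes in withdrawal against chronic ethanol were 1.47 and 1.67 over all rats, and 0.11 and 0.27 without rat 13.

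In withdrawal against control 3 were higher and 0 lower at an unadjusted p under 0.05, with a median of 0.08. Over all genes 6.24% were higher and 3.58% lower. Cd93, a receptor once described as binding C1q, ran from 14.1 to 18.8 CPM in withdrawal rats, against 5.79 to 16.8 CPM in chronic ethanol rats and 7.30 to 13.3 CPM in control rats. All 6 withdrawal rats lie above all 6 control rats, as was found upward for 0.227% of all genes tested. Its log2 change against control was 0.57 ± 0.19 (edgeR adjusted p = 0.413), and 0.63 without rat 3. Itgb2 was at 1.40 ± 0.55 and C4bpb, a chain of the C4b-binding protein, at 0.77 ± 0.35 (adjusted p = 0.453 and 0.490), and without rat 13 they were at 0.03 and 0.23. Masp2, with its few counts, was at -0.48 ± 0.24 (adjusted p = 0.522). It ran from -0.50 to -0.017 over the settings other than those with 1 rat left out.

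**Figure D5:**
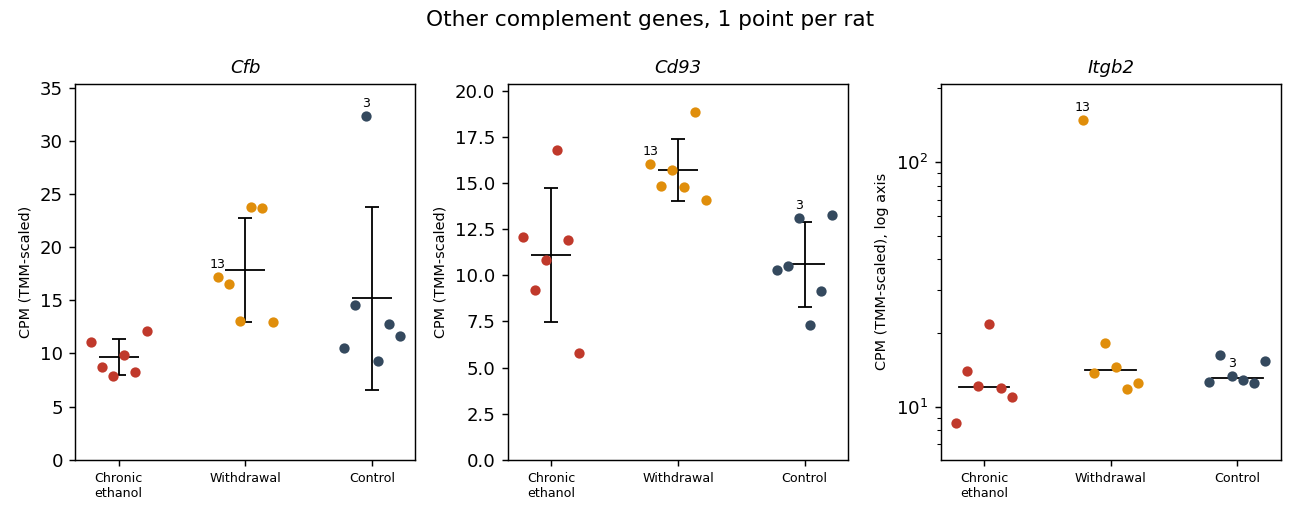
TMM-scaled CPM of Cfb, Cd93 and Itgb2, 1 point per rat, in chronic ethanol, withdrawal and control rats (6 each). Horizontal lines and bars are the mean and SD, except for Itgb2, where the axis is logarithmic and the line is the median. All withdrawal points of Cfb lie above all chronic ethanol points, as for 0.811% of the 17637 genes tested. All withdrawal points of Cd93 lie above all control points, as for 0.227% of these genes.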

How the data were processed

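RNA of the ventral tegmental area of 18 rats was read from both ends over 101 cycles, from strand-specific mRNA libraries, per the labels. The authors deposited counts of read pairs per gene, made with featureCounts 1.5.0 on the reverse strand, per the file headers. Per those headers, pairs matching several places or several genes were not counted. Reads were aligned with STAR 2.5.2a to Rnor_6.0, per the submitters' processing notes, which also list R 3.3.3 and limma. Symbols came from a RefSeq table of GRCr8, used for names only (29322 of 38445 genes matched). No exon of a member overlapped another gene model.

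The counts were filtered with filterByExpr, which left 17637 genes, scaled with TMM factors and tested over all 18 libraries with edgeR 4.0.16 in R 4.3.3 (quasi-likelihood F-test, two-sided). A gene was called when its p, adjusted by Benjamini-Hochberg, was under 0.05. The SE of a log2 change is its size divided by the square root of F. TPM used the exonic lengths of the files. Likeness between genes is Pearson's r of log2 CPM (prior count 2), centred on the group means, among 15028 tested genes that averaged 1 CPM or more. The pipeline was tested on simulated counts. No libraries were copies of each other (smallest chi-square per degree of freedom 12.5). The p-values set a difference between groups against the spread between these rats. They do not separate the groups from the first library index, which partly overlaps them.

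Other settings were RLE factors, no filter, 1 CPM in 6 libraries, a robust fit, DESeq2 1.42.0, limma-voom (limma 3.58.1), only the 2 groups compared, the first library index (read from the file names) as a term, rats left out, and an adjusted p under 0.10. The members, lists and tests were chosen with earlier results of these data known. The text names all members, the 4 other complement genes with the lowest p in each comparison, and the 3 genes most like each member. The result of 1 further gene is not reported here.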

Additional observations from a re-analysis of the deposited data

Results flagged for a closer look

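Among 24 groups of 6 rats (8 genes in 3 groups), 3 had a rat far from the rest. For independent, normally distributed values chance gives such a gap in about 1 of 20 groups. These groups share the same rats, and several of the genes move together. The number flagged can therefore not be measured against that rate. Serping1 was 127.563 CPM in withdrawal rat 13, against 12.8 CPM in the nearest rat of its group. C1s was 26.7771 CPM in the same rat, against 10.8 CPM in the nearest. Serping1 was 33.5086 CPM in control rat 3, against 11.3 CPM in the nearest. The pineal, choroid plexus, meningeal fibroblast and border macrophage sums of these rats are given with the library depths, and their part in these values was not tested.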

How the results depend on the processing

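No paired analysis was possible because the groups share no animal numbers. edgeR called 0 members in each comparison and with any of the 18 rats left out. DESeq2 called 1 in chronic ethanol against control (C3) and 1 in withdrawal against chronic ethanol (C4b). In edgeR an adjusted p under 0.10 called 1 member in withdrawal against chronic ethanol (C4b), among 83 genes. At an adjusted p under 0.05 edgeR called 0 over all genes. DESeq2 called 46, 47 and 301 in chronic ethanol against control, withdrawal against control and withdrawal against chronic ethanol. With 1 rat left out edgeR called at most 4, 2 and 24 in the same order. The log2 change of C3 in chronic ethanol against control ran from -1.30 to -1.02 with 1 rat left out, and that of C4b in withdrawal against chronic ethanol from 1.87 to 2.40. With the index as a term C1qc was -0.10 in chronic ethanol against control, and C1qa -0.11, C1qb -0.21 and C1qc -0.032 in withdrawal against control. In withdrawal against control C1s was -0.0071 with no filter, -0.0025 with 1 CPM in 6 libraries and -0.19 with limma-voom. Without rats 3 and 13 C1s was -0.32 and C2 0.043 there, C1s was -0.10 in withdrawal against chronic ethanol, and C7 0.038 in chronic ethanol against control. Without rats 5, 8, 13 and 17 C1s was -0.43, Serping1 -0.42 and C2 0.0047 in withdrawal against control, and C1s -0.0019 in withdrawal against chronic ethanol. With 1 rat left out, withdrawal against control ran from -0.055 to 0.091 for C1qa, -0.47 to 0.17 for C1s, -0.13 to 0.052 for C2 and -0.43 to 1.96 for Serping1. Withdrawal against chronic ethanol ran from -0.0025 to 0.18 for C2 and -0.10 to 0.58 for C1s, and chronic ethanol against control from -0.087 to 0.17 for C1qc and -1.05 to 0.037 for C7. The cause was not tested, apart from the rats named. C4b rests on as few as 19 counts per library, which limits its precision.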
